A study of Mus musculus with 8 samples.

Results

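The genes described here are the heat shock proteins, their DnaJ partners and the CCT chaperonin subunits of the mouse testis, measured in mice without and with Ing2. They were taken by name: every probe set (the group of probes that reports 1 transcript) annotated to exactly 1 gene symbol that starts with Hspa, Hspb, Hspd, Hspe, Hsph, Hsp90, Dnaja, Dnajb or Dnajc, or that is Cct followed by a digit. This gave 104 of 35557 probe sets and 81 of 19938 named genes, each gene represented by its brightest probe set over the 8 arrays. All 81 were tested and none was filtered out for a low value. A further 10 probe sets that carry a chaperone symbol together with another symbol were left out of the counts. Hsp90ab1 and Hspa1b had no probe set of their own and were not analysed here.

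The mice were 5 Ing2-/- animals and 3 Ing2+/+ littermates, males of 2 to 3 months, with 1 array of whole testis RNA per mouse and no pooling. The Ing2-/- allele is a germline deletion, made in ES cells with loxP sites and EIIa-Cre and then bred with C57BL/6J mice, so that Ing2 (a reader of methylated histone H3) is absent from every cell and not from germ cells alone. Genes near Ing2 and the strain background of each animal were not examined. Ing2 itself had log2 levels of 5.06, 5.64, 5.21, 5.29 and 5.25 in the Ing2-/- testes and 7.43, 7.60 and 7.34 in the Ing2+/+ testes, a difference of -2.16 (limma adjusted p = 3.95e-04). The Ing2-/- mean of 5.29 lay under the median of the unnamed probe sets (5.54 to 5.62 in Ing2-/- arrays), so the size of this difference rests on a level near the lower end of the array. All values are log2 levels that the authors normalized with RMA (robust multi-array average), so a level says how a transcript stands among all those in that testis. Levels are compared between mice for 1 probe set at a time. Where the level of 1 gene is subtracted from that of another within an array, only the difference between genotypes is read, since the value itself also depends on the probes.

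Hsp70 proteins bind exposed hydrophobic stretches of client proteins in a cycle driven by ATP. DnaJ proteins (the Dnaja, Dnajb and Dnajc classes) deliver clients and start ATP hydrolysis, and nucleotide exchange factors such as the Hsp110 proteins reset the cycle. Hsp90 acts later on many kinases and receptors, small heat shock proteins hold unfolded clients, and the chaperonins (CCT in the cytosol, Hspd1 with its lid Hspe1 in mitochondria) fold proteins inside a closed chamber. The testis is unusual in that its germ cells switch on chaperones of their own during meiosis and spermiogenesis, among them Hspa2, Hspa1l, Dnajb3 and Cct6b, beside the broadly expressed relatives that somatic cells use. Heat shock factors switch on the stress-inducible members through heat shock elements, alternating GAA and TTC units upstream of the gene.

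For 2 loci the upstream sequence is shown here because they belong to Hspd1 and Hspe1, a pair with some of the largest higher values, and to Hspa2, the germ-cell form that was called. Sequences are from RefSeq on GRCm38.p6, in lower case, with capitals for 3 or more alternating units, spelled GAANNTTCNNGAA or TTCNNGAANNTTC and searched on both strands. Hspe1 and Hspd1 lie head to head for the Hspd1 start site used here. The 215 bases between that site and the Hspe1 start, chr1:55087933-55088147 on the plus strand, are printed in the direction of Hspe1. They hold a run of 18 bases at positions -89 to -72 of the Hspe1 start, in which 2 overlapping matches join, and which is the same run for Hspd1 on the other strand. The table gives Hspd1 another start site, with its upstream bases at chr1:55088244-55088493 on the minus strand. The stretch and its run lie after that start, not upstream of it. The second is the 250 bases before the Hspa2 start, chr12:76404120-76404369 on the plus strand, in which these letters do not occur.
Hspe1 and Hspd1, shared upstream stretch: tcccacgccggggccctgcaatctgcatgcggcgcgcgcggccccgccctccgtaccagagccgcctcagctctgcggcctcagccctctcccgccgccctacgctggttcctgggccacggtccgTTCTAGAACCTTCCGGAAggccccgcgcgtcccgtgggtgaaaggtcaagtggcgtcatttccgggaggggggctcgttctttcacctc
Hspa2, upstream: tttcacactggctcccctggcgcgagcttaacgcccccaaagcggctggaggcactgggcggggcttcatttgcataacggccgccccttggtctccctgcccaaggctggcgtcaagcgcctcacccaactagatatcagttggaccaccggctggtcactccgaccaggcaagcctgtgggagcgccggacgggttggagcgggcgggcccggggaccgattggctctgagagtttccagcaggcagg

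The element was looked for in the windows that run from 250 bases before to 50 bases after each start site in the table. It occurred in 198 of 32851 windows (0.603%) and in 6 of the 86 windows of members (6.98%), which belong to 4 of the 67 member genes that have a window. Besides Hspd1 and Hspe1 these were Dnajb6, where it lies upstream of the start, and Hsph1, where it lies after the start. Windows can overlap, so the same bases can count more than once, as in the run that Hspd1 and Hspe1 share. The share of genes with a match was not counted over all genes. Only the exact spelling was searched, so a member without a match may still hold an element that departs from it. Hspd1 and Hspe1 had log2 differences of 0.62 and 0.56, and Dnajb6 and Hsph1 of -0.31 and -0.15, so that 2 of the 4 lay above 0 and 2 below. None of the 4 was called. The other 14 members, among them Hspa8, Hsp90aa1 and Hspa9, have no window in the table.

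Of the 81 chaperone genes, 2 were called higher in Ing2-/- testes (2.47%, against 1.97% of all named genes) and 2 were called lower (2.47%, against 3.01% of all named genes), at a limma adjusted p under 0.05. The small heat shock protein Hspb7 and the meiotic Hsp70 Hspa2 fell, and the constitutive Hsp70 Hspa8 and the ribosome-associated Hsp70 Hspa14 rose. The share of members called was thus close to that of all genes. At an unadjusted p under 0.05, 16 members were higher (19.8%, against 16.5% of all genes) and 19 were lower (23.5%, against 13.5%). In 16 members every Ing2-/- array lay above every Ing2+/+ array (19.8%, against 16.7% of all genes), and in 24 every Ing2-/- array lay below (29.6%, against 14.9%). Of these 24, 9 belonged to the 11 germ-cell forms and further testis-enriched members described below. Among the other 70 members 15 lay below (21.4%) and 16 above (22.9%), with a median difference of -0.03. The median difference was -0.07 over the 81 members and 0.02 over all named genes, with 33 members above 0 and 48 below. Shifting the arrays to an equal median gave 26 above and 55 below, and cyclic loess gave 35 and 46.

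**Figure D1:**
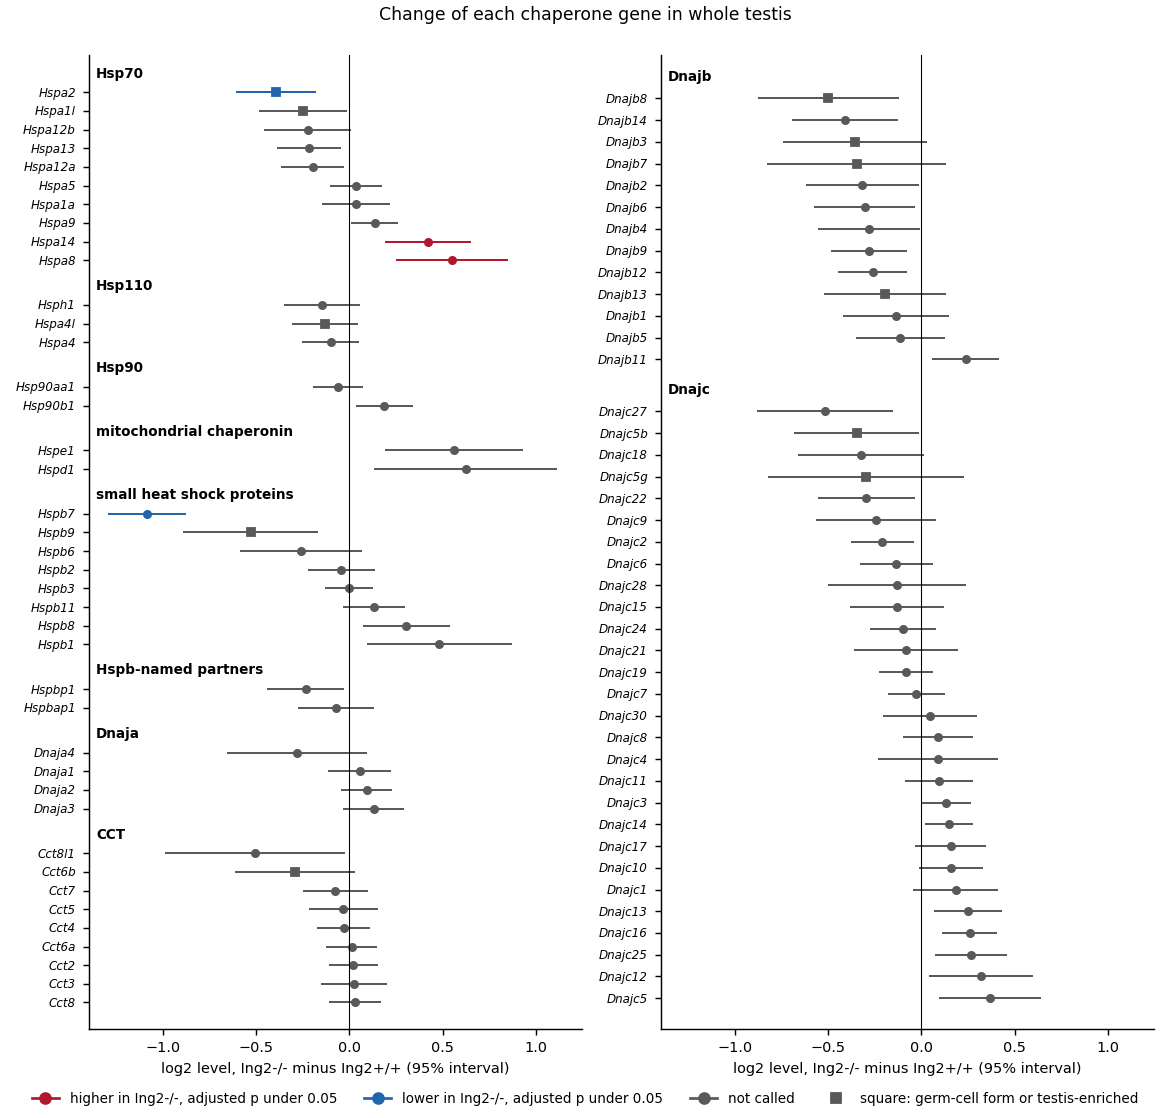
Log2 difference, Ing2-/- minus Ing2+/+, of each of the 81 chaperone genes with its 95% interval from limma (5 Ing2-/- and 3 Ing2+/+ testes), grouped by role and ordered by size; squares mark germ-cell forms and further testis-enriched members. Only Hspa14 and Hspa8 (red) and Hspa2 and Hspb7 (blue) passed an adjusted p of 0.05, and Hspb7 lay furthest from 0 at -1.09.

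The array of Ing2-/- replicate 3 stood apart from the other Ing2-/- arrays. Its mean correlation with them over all probe sets was 0.983, against 0.990 to 0.992 for the other 4 arrays. It was the lowest Ing2-/- array in 39 of the 48 members below 0 and the highest in 18 of the 33 above 0. Its median distance from the Ing2+/+ mean over the members was 0.35, against 0.13 to 0.19 for the other Ing2-/- arrays. Without it the spread within the Ing2-/- group was smaller, and 8 members were called higher (9.88%, against 8.72% of all genes) and 8 lower (9.88%, against 7.76%). The 4 genes called with all arrays were among these 16. The others were Hspe1, Hspb1, Dnajb11, Dnajc5, Dnajc10 and Dnajc16 on the higher side, and Hspa12a, Hspb9, Dnajb6, Dnajb8, Dnajb14 and Dnajc27 on the lower side.

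Marker genes of the testis cell types differed between the same arrays. Measured as the mean over a list of the level minus the Ing2+/+ mean, the markers of pachytene spermatocytes lay between -0.61 and -0.13 in Ing2-/- testes, against -0.01 to 0.01 in Ing2+/+ testes. Round spermatid markers lay between -0.86 and -0.16, against -0.05 to 0.04, and elongating spermatid markers between -0.53 and -0.09, against -0.02 to 0.03. Sertoli cell markers lay between 0.30 and 1.08, against values within 0.01 of 0 in Ing2+/+ testes, Leydig cell markers between 0.31 and 1.21, against -0.05 to 0.03, and macrophage markers between 0.15 and 0.69, against -0.03 to 0.03. Endothelial markers lay between 0.11 and 0.30 in Ing2-/- testes, against -0.06 to 0.06 in Ing2+/+ testes, and spermatogonia markers between 0.05 and 0.38, against -0.01 to 0.02. Below 0 stood 11 of 12 pachytene, 13 of 14 round spermatid and 13 of 13 elongating spermatid markers, while 18 of 18 Sertoli, 8 of 8 Leydig and 9 of 9 macrophage, 8 of 8 endothelial and 10 of 12 spermatogonia markers stood above 0. No marker of these lists lay under the median of the unnamed probe sets in both genotypes. Ing2-/- replicate 3 had the lowest value of the pachytene and both spermatid lists and the highest of the Sertoli, Leydig, macrophage and spermatogonia lists. In whole testis RNA, fewer cells of a type and less RNA per cell cannot be told apart. The part of the cell mix in the chaperone values was not tested.

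**Figure D2:**
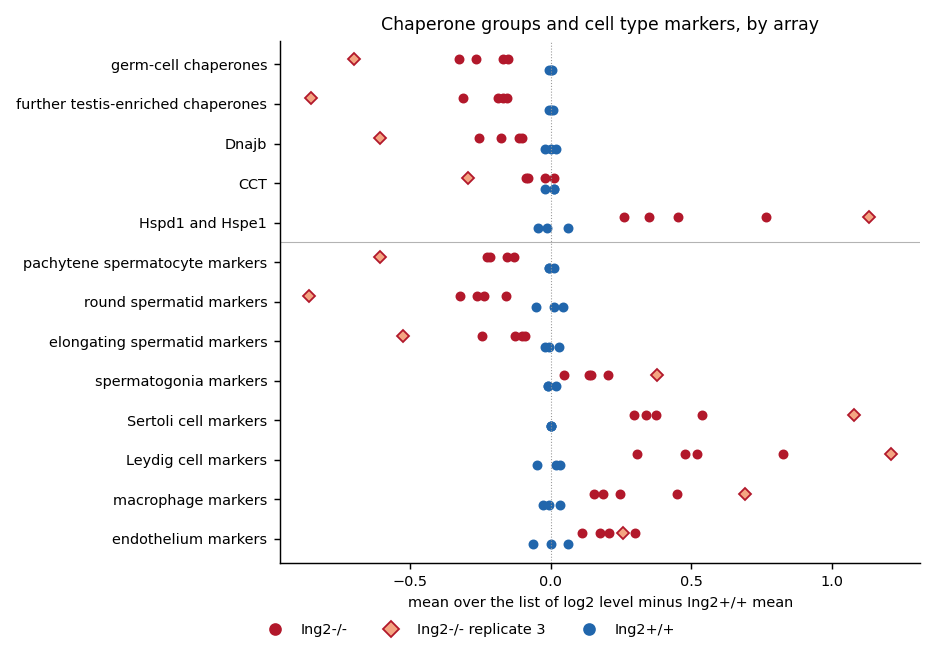
Mean over each list of the log2 level minus the Ing2+/+ mean, 1 point per testis, with Ing2-/- arrays drawn above Ing2+/+ arrays in each row and Ing2-/- replicate 3 as a diamond. Germ-cell chaperones (-0.70 to -0.15 in Ing2-/- testes) lay on the side of the pachytene and spermatid markers. Hspd1 with Hspe1 (0.26 to 1.13) lay above 0, the side of the Sertoli, Leydig, macrophage, endothelium and spermatogonia markers.

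Among the germ-cell forms, Hspa2, which mouse spermatocytes need to complete meiosis, was the one that was called. Its log2 levels were 11.29, 11.12, 10.98, 11.37 and 11.17 in Ing2-/- testes and 11.55, 11.59 and 11.60 in Ing2+/+ testes. The highest Ing2-/- array lay below the lowest Ing2+/+ array, and the 3 Ing2+/+ testes were within 0.05 of each other. The means were 11.18 ± 0.16 in Ing2-/- (SD, n = 5) and 11.58 ± 0.02 in Ing2+/+ (SD, n = 3), a difference of -0.40 with a standard error of 0.09 (1.32-fold lower, limma adjusted p = 0.0476). Without Ing2-/- replicate 3 the difference was -0.34 (limma adjusted p = 0.0224), whereas the call was lost without Ing2-/- replicate 1, 2 or 5 or any 1 Ing2+/+ testis (adjusted p 0.0636 to 0.162).

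Hspa1l, the Hsp70 of spermatids, had levels of 11.90, 11.86, 11.46, 11.79 and 11.74 in Ing2-/- testes and 12.04, 11.95 and 12.003 in Ing2+/+ testes. Dnajb3, a sperm DnaJ protein, had 10.76, 10.66, 10.01, 10.82 and 10.54 in Ing2-/- testes and 10.94, 10.90 and 10.92 in Ing2+/+ testes. Cct6b, the germ-cell form of the CCT zeta subunit, had 10.60, 10.53, 9.997, 10.66 and 10.49 in Ing2-/- testes and 10.72, 10.79 and 10.73 in Ing2+/+ testes. In all of these genes the Ing2-/- arrays lay wholly below the Ing2+/+ arrays, with replicate 3 the lowest, and none was called. The differences were -0.25 for Hspa1l, -0.36 for Dnajb3 and -0.29 for Cct6b, with limma adjusted p of 0.155, 0.202 and 0.211. Without replicate 3 they were -0.18, -0.22 and -0.18 (limma adjusted p 0.103, 0.0922 and 0.0952). The direction of all 4 germ-cell forms was also below 0 after either rescaling of the arrays. Arrays were apart on this side in 14.9% of all genes, and the pachytene and spermatid marker lists lay apart in the same arrays.

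The 7 further testis-enriched members, a list drawn from general knowledge, were all below 0, with a median difference of -0.35, and 5 had all Ing2-/- arrays below all Ing2+/+ arrays (71.4%, against 14.9% of all genes). None was called with all arrays, and Hspb9 and Dnajb8 were called lower without Ing2-/- replicate 3. Hspb9, a testis small heat shock protein, had levels of 10.75, 10.78, 10.06, 10.63 and 10.46 in Ing2-/- testes and 10.97, 11.09 and 11.14 in Ing2+/+ testes (difference -0.53, limma adjusted p = 0.0790). Dnajb8, a testis DnaJ protein that keeps unfolded clients soluble, had 10.53, 10.62, 9.83, 10.41 and 10.29 in Ing2-/- testes and 10.73, 10.88 and 10.90 in Ing2+/+ testes (difference -0.50, limma adjusted p = 0.0988). Both genes were separated between the genotypes in every array, by 0.19 and 0.11 between the nearest arrays. The differences were -0.35 for Dnajb7, -0.20 for Dnajb13 (a component of sperm flagella), -0.13 for Hspa4l (an Hsp110 protein needed for mouse sperm function), and -0.35 and -0.30 for Dnajc5b and Dnajc5g (testis relatives of the cysteine string protein). Their limma adjusted p lay between 0.162 and 0.431. The values of Dnajb7 and Dnajc5g overlapped between the genotypes. With Ing2-/- replicate 3 left out, the median of the 7 was -0.17, and Dnajb7, Dnajb13, Hspa4l, Dnajc5b and Dnajc5g had -0.17, -0.08, -0.08, -0.23 and -0.10.

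**Figure D3:**
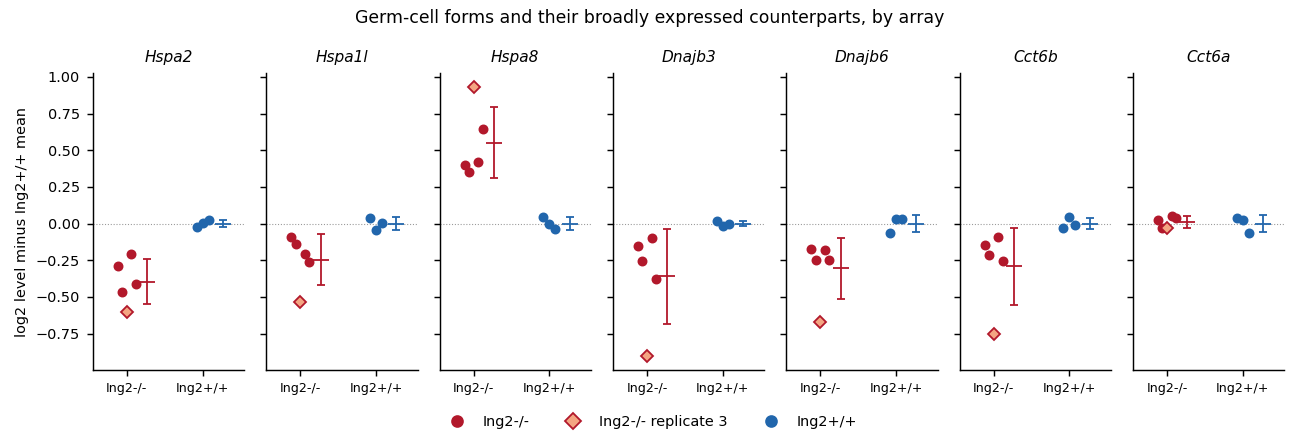
Log2 level minus the Ing2+/+ mean for the 4 germ-cell forms and the broadly expressed Hspa8, Dnajb6 and Cct6a, 1 point per testis, with mean and SD beside the points (5 Ing2-/- testes left, 3 Ing2+/+ testes right, replicate 3 of Ing2-/- as a diamond). Hspa8 lay above the Ing2+/+ arrays in every Ing2-/- testis, Cct6a overlapped, and the other 5 genes lay below.

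Of the broadly expressed counterparts, Hspa8, the constitutive cytosolic Hsp70 that also uncoats clathrin vesicles, had levels of 11.33, 11.28, 11.86, 11.35 and 11.57 in Ing2-/- testes and 10.97, 10.92 and 10.89 in Ing2+/+ testes. Every Ing2-/- array lay at least 0.31 above the highest Ing2+/+ array. Its mean was 11.48 ± 0.24 in Ing2-/- (SD, n = 5) and 10.93 ± 0.04 in Ing2+/+ (SD, n = 3), a difference of 0.55 with a standard error of 0.13 (1.46-fold higher, limma adjusted p = 0.0491). That adjusted p lay just under the threshold, and it ranged from 0.0081 with array weights to 0.163 over the alternatives. The call was lost when any 1 array other than Ing2-/- replicate 3 was left out (limma adjusted p 0.0531 to 0.163). Dnajb6, a DnaJ protein that suppresses aggregation, had 9.03, 8.95, 8.53, 9.02 and 8.95 in Ing2-/- testes and 9.14, 9.23 and 9.23 in Ing2+/+ testes, a difference of -0.31 (limma adjusted p = 0.134). It was thus on the side of its germ-cell relative Dnajb3. The 4 probe sets annotated to both Dnajb6 and Gm4247 had differences of -0.10 to -0.08. Cct6a, the broadly expressed zeta subunit, had a mean of 10.57 ± 0.04 in Ing2-/- (SD, n = 5) and 10.56 ± 0.06 in Ing2+/+ (SD, n = 3), and its difference of 0.01 took the other sign after a shift to an equal median.

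Germ-cell forms were then set against their counterparts within each array, where a scaling factor of the whole array cancels. Hspa2 minus Hspa8 was -0.03, -0.16, -0.88, 0.03 and -0.41 in Ing2-/- testes and 0.58, 0.67 and 0.71 in Ing2+/+ testes, a difference of -0.95. The nearest arrays of the genotypes lay 0.56 apart, and the exact two-sided permutation p was 0.0179, the smallest that the 56 splits of 8 arrays allow. Hspa1l minus Hspa8 was 0.58, 0.58, -0.40, 0.44 and 0.16 in Ing2-/- testes and 1.07, 1.03 and 1.12 in Ing2+/+ testes, a difference of -0.80 (exact permutation p = 0.0357). Both rest on the same Hspa8 values, those of its brightest probe set. Hspa2 and Hspa1l each lay wholly below the Ing2+/+ arrays, and Hspa8 wholly above them. The separation of both pairs thus follows from the single genes and is no further result. In the third Hspa8 probe set the genotypes differed by 0.15, with Ing2-/- replicates 4 and 5 below the Ing2+/+ arrays. That probe set read 10.33 in Ing2-/- replicate 5, where Hspa2 had 11.17 and Hspa1l 11.74. Both distances are wider than in any Ing2+/+ array. With that probe set the genotypes therefore overlap in both pairs, and no permutation test was run on it. Cct6b minus Cct6a differed by -0.30, with Ing2-/- arrays from -0.53 to 0.04 and Ing2+/+ arrays from 0.12 to 0.24 (exact permutation p = 0.0714). Dnajb3 minus Dnajb6 ranged from 1.48 to 1.80 in Ing2-/- testes and from 1.66 to 1.80 in Ing2+/+ testes, so the groups overlapped (difference -0.05, exact permutation p = 0.571). Here Dnajb6 stands for its own probe set, with a difference of -0.31. The brighter probe sets that it shares with Gm4247 had differences of -0.10 to -0.08. No pair was formed with them, so this overlap is shown for the single-symbol probe set only. After Benjamini-Hochberg adjustment over the 4 pairs the p-values were 0.0714, 0.0714, 0.0952 and 0.571, and no pair passed. The Hspa2 and Hspa8 difference was -0.80 without Ing2-/- replicate 3.

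**Figure D4:**
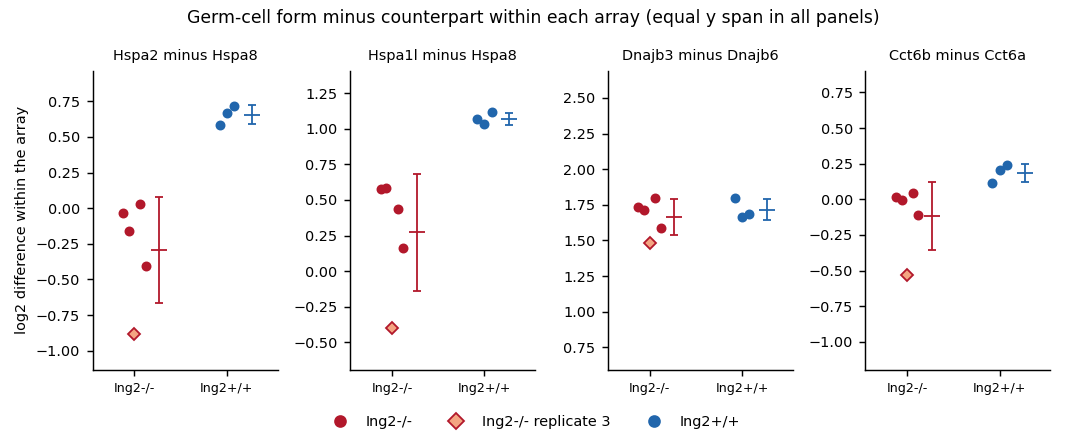
Level of each germ-cell form minus that of its broadly expressed counterpart within each array (log2, 1 point per testis, mean and SD beside the points, Ing2-/- left and Ing2+/+ right), with the same span on each vertical axis. Hspa2 minus Hspa8 lay at or below 0.03 in Ing2-/- testes and at or above 0.58 in Ing2+/+ testes, while Dnajb3 minus Dnajb6 overlapped. Hspa8 and Dnajb6 are each represented by the brightest probe set of their own. With the third Hspa8 probe set the genotypes overlapped, and the brighter probe sets shared by Dnajb6 and Gm4247 were not used.

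In the Hsp70 group of 10 genes, 2 rose and 1 fell (1.97% and 3.01% of all genes did). Hspa14 had levels of 8.04, 7.90, 8.33, 8.02 and 8.14 in Ing2-/- testes and 7.56, 7.71 and 7.72 in Ing2+/+ testes, with no overlap, a difference of 0.42 with a standard error of 0.10 (1.34-fold higher, limma adjusted p = 0.0487). Its call was lost in 11 of 17 alternatives, among them those without Ing2-/- replicate 1, 4 or 5 or any 1 Ing2+/+ testis (limma adjusted p 0.0585 to 0.175). Hspa9, the mitochondrial Hsp70, had levels of 11.36 to 11.42 in Ing2-/- testes and 11.22 to 11.26 in Ing2+/+ testes, a difference of 0.14 that was not called, and it did not follow Ing2-/- replicate 3. Hspa5, the Hsp70 of the endoplasmic reticulum, and the stress-inducible Hspa1a had differences of 0.03 and 0.04, with overlapping arrays, and that of Hspa1a was below 0 after either rescaling. A probe set that Hspa1a shares with Hspa1b had a difference of -0.13 (limma adjusted p = 0.379), so that the inducible Hsp70 pair had no settled direction. Hspa12b, Hspa13 and Hspa12a had differences of -0.22, -0.22 and -0.20, and were not called. Their Ing2-/- arrays all lay below the Ing2+/+ arrays (14.9% of all genes did). The nearest arrays of the genotypes were only 0.0019 apart for Hspa12b, 0.0583 for Hspa13 and 0.0075 for Hspa12a. Hspa12a was nearer to 0 in Ing2-/- replicate 3 (-0.02) than in the other Ing2-/- testes (-0.24 on average).

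The 3 Hsp110 proteins Hsph1, Hspa4l and Hspa4 had differences of -0.15, -0.13 and -0.10, and none was called. Of the Hsp90 proteins, Hsp90aa1 had a difference of -0.06, with further probe sets at -0.05 and -0.03, and its sign turned under cyclic loess. Hsp90b1, the Hsp90 of the endoplasmic reticulum, had levels of 11.90, 11.78, 11.99, 11.92 and 11.87 in Ing2-/- testes and 11.74, 11.70 and 11.68 in Ing2+/+ testes. Its arrays did not overlap, and the difference was 0.19 (limma adjusted p = 0.109).

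Hspd1 and Hspe1, the mitochondrial chaperonin and its lid that share the upstream stretch printed above, lay on the same side of the Ing2+/+ arrays in every Ing2-/- testis. Hspd1 had levels of 9.57, 9.37, 10.45, 9.69 and 9.97 in Ing2-/- testes and 9.19, 9.28 and 9.09 in Ing2+/+ testes. Hspe1 had 8.96, 8.98, 9.65, 9.05 and 9.40 in Ing2-/- testes and 8.55, 8.67 and 8.71 in Ing2+/+ testes. In both genes all Ing2-/- arrays lay above all Ing2+/+ arrays, replicate 3 was highest and replicate 5 next. The differences were 0.62 with a standard error of 0.21 for Hspd1 and 0.56 with a standard error of 0.16 for Hspe1 (1.54-fold and 1.48-fold, limma adjusted p = 0.107 and 0.0744), larger than that of Hspa8 and not called. A second probe set gave 0.60 for Hspd1 and 0.56 for Hspe1. Without replicate 3, Hspe1 was called (0.45, limma adjusted p = 0.0331) and Hspd1 was at the threshold (0.46, limma adjusted p = 0.0501).

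Among the 8 small heat shock proteins, Hspb7, known for its abundance in heart, had the largest difference of all 81 members. Its levels were 5.17, 5.08, 4.99, 5.30 and 5.12 in Ing2-/- testes and 6.38, 6.12 and 6.15 in Ing2+/+ testes. The gap between the nearest arrays of the genotypes was 0.82, wider than the spread within either group. The difference was -1.09 with a standard error of 0.09 (2.12-fold lower, limma adjusted p = 0.0019), and -1.05 without Ing2-/- replicate 3. The Ing2-/- mean of 5.13 lay under the median of the unnamed probe sets (5.54 to 5.62 in Ing2-/- arrays), so the size of the fold rests on a level near the lower end of the array. Hspb1 (Hsp25), a stress-inducible member, had 8.02, 7.92, 8.62, 7.80 and 8.07 in Ing2-/- testes and 7.47, 7.66 and 7.68 in Ing2+/+ testes. Its arrays did not overlap, the difference was 0.48 (limma adjusted p = 0.112) and 0.49 in a second probe set, and it was called without replicate 3 (0.35, limma adjusted p = 0.0337). Hspb8, which acts with Bag3 in removing misfolded proteins, had a difference of 0.31 with arrays apart (limma adjusted p = 0.0988), in which Ing2+/+ replicate 3 lay lowest at 5.70. Without that array the difference was 0.19 (limma adjusted p = 0.274). Hspb6, Hspb11, Hspb2 and Hspb3 had differences of -0.26, 0.13, -0.04 and 0.00, that of Hspb6 was -0.14 without Ing2-/- replicate 3, and Hspb3 lay under the median of the unnamed probe sets in both genotypes. Of the partners named after this family, Hspbp1, a nucleotide exchange factor of Hsp70, had a difference of -0.24 and Hspbap1 of -0.07, with overlapping arrays.

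**Figure D5:**
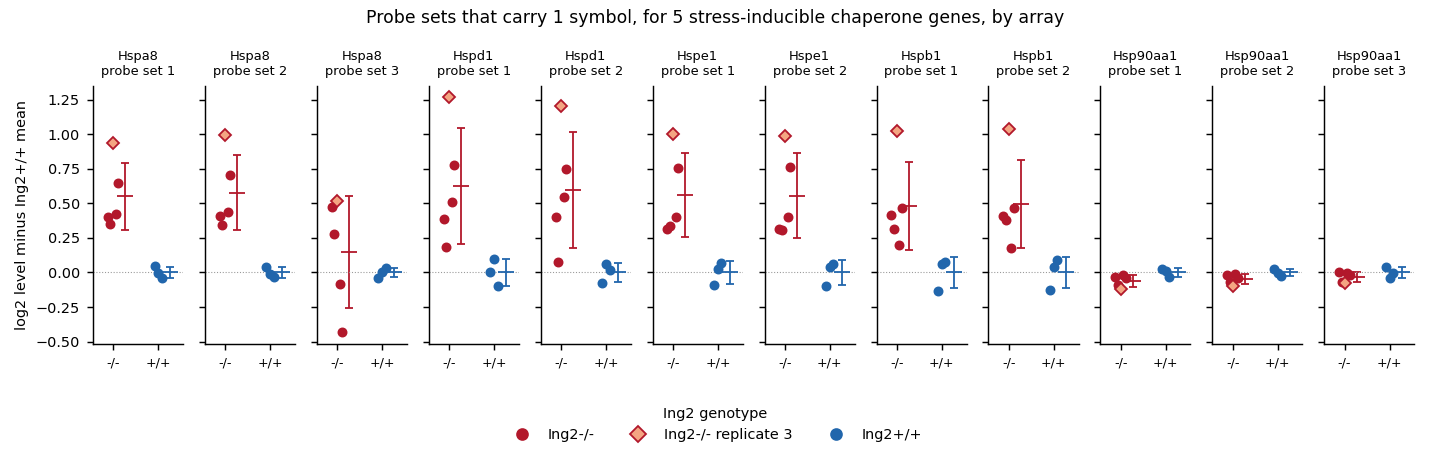
Log2 level minus the Ing2+/+ mean for each probe set annotated to Hspa8, Hspd1, Hspe1, Hspb1 or Hsp90aa1 alone, 1 point per testis, mean and SD beside the points, Ing2-/- left and Ing2+/+ right. The probe sets of Hspd1, Hspe1 and Hspb1 lay on the same side, the third of Hspa8 (difference 0.15) spread from below to above the Ing2+/+ arrays, and those of Hsp90aa1 lay near 0.

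The 11 stress-inducible members with a probe set of their own did not all lie on one side. Hspa8, Hspd1, Hspe1, Hspb1 and Hspb8 had all Ing2-/- arrays higher (5 of 11, against 16.7% of all genes). Hsp90aa1, Hspa1a, Hsph1, Dnaja1, Dnajb1 and Dnajb4 had overlapping arrays. Of the 11, 1 was called (1.97% of all genes were called higher). It was Hspa8, described above as the constitutive Hsp70, and no other member of this list was called. Their median difference was 0.06, near the 0.02 of all genes. Dnajb1, the main Hsp40 of the stress response, had a difference of -0.14 and Dnajb4 of -0.28 (limma adjusted p = 0.506 and 0.161), and without Ing2-/- replicate 3 that of Dnajb1 was -0.05. Dnaja1, a partner of Hspa8, had 0.06. The probe sets of Hspa8 did not all give the same value. The first 2 gave 0.55 and 0.58, while the third, with Ing2-/- levels of 11.24, 11.04, 11.28, 10.68 and 10.33 against 10.73, 10.77 and 10.80 in Ing2+/+ testes, gave 0.15 (limma adjusted p = 0.684). In that probe set Ing2-/- replicates 4 and 5 lay below the Ing2+/+ arrays and the other 3 above. Another 2 probe sets, shared with the small nucleolar RNAs Snord14c and Snord14d, gave 0.80 and 0.82 and were not called.

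In the Dnajb class 12 of 13 genes were below 0, also after either rescaling. In 8 of them all Ing2-/- arrays lay below all Ing2+/+ arrays (14.9% of all genes did). The germ-cell form Dnajb3 and the testis-enriched Dnajb8 and Dnajb13, already described, are among these 8. Of the class 0 were called (limma), against 7 lower and 1 higher at an unadjusted p under 0.05 (13.5% and 16.5% of all genes). The class median was -0.28, and -0.21 without Ing2-/- replicate 3, when 3 were called lower (7.76% of all genes were). Dnajb14, a DnaJ protein of the endoplasmic reticulum membrane, had levels of 9.82, 9.63, 9.28, 9.84 and 9.74 in Ing2-/- testes and 10.06, 10.07 and 10.08 in Ing2+/+ testes (difference -0.41, limma adjusted p = 0.0830). The 2 probe sets annotated to both Dnajb14 and Pin4 had differences of 0.01 and 0.03. Its relative Dnajb12 had 7.84, 7.91, 7.82, 7.76 and 7.60 in Ing2-/- testes and 8.01, 8.03 and 8.10 in Ing2+/+ testes (difference -0.26, limma adjusted p = 0.0813). Both were apart in all arrays, and Dnajb12 was not lowest in replicate 3. Dnajb2 and Dnajb9 (ERdj4, of the endoplasmic reticulum) had differences of -0.32 and -0.28 with arrays apart, and Dnajb5 had -0.11, and -0.04 without replicate 3. Dnajb11 (ERdj3), a soluble partner of Hspa5, was the exception at 0.24. Its levels were 9.86, 9.80, 9.61, 9.86 and 9.90 in Ing2-/- testes and 9.56, 9.54 and 9.61 in Ing2+/+ testes, and replicate 3 was the Ing2-/- array that overlapped. Without it Dnajb11 was called higher (0.29, limma adjusted p = 0.0157).

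Of the 4 Dnaja genes, Dnaja4 had a difference of -0.28, and of -0.15 without Ing2-/- replicate 3, and Dnaja2 and Dnaja3 had 0.09 and 0.13. The 28 Dnajc genes were spread evenly, 14 above and 14 below 0 with a median of 0.01, and none was called (limma). At an unadjusted p under 0.05, 7 were higher and 4 lower (25% and 14.3% had arrays apart on these sides). Over all genes the shares at that unadjusted p were 16.5% and 13.5%, and 16.7% and 14.9% had arrays apart. Dnajc27, which joins a small GTPase to a J domain, had levels of 8.58, 8.55, 7.85, 8.53 and 8.39 in Ing2-/- testes and 8.84, 8.89 and 8.97 in Ing2+/+ testes. It was the lowest of the class at -0.52 (limma adjusted p = 0.0864) and was called without replicate 3 (-0.39, limma adjusted p = 0.0125). Dnajc16 had 8.98, 8.97, 9.05, 8.91 and 8.91 in Ing2-/- testes and 8.68, 8.67 and 8.77 in Ing2+/+ testes, a difference of 0.26 with arrays apart that just missed the threshold (limma adjusted p = 0.0512). Dnajc5, the cysteine string protein of secretory vesicles, had 8.74, 8.89, 9.23, 8.68 and 8.94 in Ing2-/- testes and 8.51, 8.57 and 8.51 in Ing2+/+ testes. It differed by 0.37 (limma adjusted p = 0.0927), the opposite side to its testis relatives Dnajc5b and Dnajc5g. Dnajc13, an endosomal DnaJ protein, has 15 probe sets, all above 0, from 0.08 to 0.32, of which none was called (limma adjusted p at least 0.0790). Dnajc12 and Dnajc25 had 0.32 and 0.26, and Dnajc3 and Dnajc14 had 0.13 and 0.15, all with arrays apart. On the lower side Dnajc18 and Dnajc2 had -0.32 and -0.21 with arrays apart, and Dnajc22 and Dnajc9 had -0.30 and -0.24 with overlap. Without Ing2-/- replicate 3, Dnajc18 had -0.21 and Dnajc9 had -0.14. The other 14 Dnajc genes lay between -0.13 and 0.18 and overlapped between the genotypes.

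By compartment, 7 of the 9 members listed for the endoplasmic reticulum lay above 0, with Hspa13 and Dnajb9 below. Of the 9 listed mitochondrial members 6 lay above 0. The first list leaves out Dnajb14, placed above in the endoplasmic reticulum membrane, and its relative Dnajb12. These had differences of -0.41 and -0.26, with all Ing2-/- arrays below the Ing2+/+ arrays, so the lean of the list depends on its choice of members. The list medians were 0.16 and 0.09, and 0 of either list were called. At an unadjusted p under 0.05, 4 were higher and 2 lower in the first list, and 3 higher and 0 lower in the second. Over all genes 16.5% were higher and 13.5% lower at that p, and lists of 9 are small beside these shares. After a shift to an equal median 6 and 5 were above 0.

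The CCT subunits were flat apart from the germ-cell form and a CCT8-like gene. Cct2, Cct3, Cct4, Cct5, Cct6a, Cct7 and Cct8 had differences between -0.07 and 0.03, all with overlapping arrays, and their median of 0.01 became -0.04 after a shift to an equal median and 0.05 under cyclic loess. Cct8, the theta subunit, had means of 10.83 ± 0.05 in Ing2-/- (SD, n = 5) and 10.80 ± 0.04 in Ing2+/+ (SD, n = 3), with a 95% interval of the difference from -0.10 to 0.17. Cct7, the eta subunit, had -0.07 with an interval from -0.24 to 0.09. Cct8l1 had levels of 8.46, 8.15, 7.38, 8.26 and 7.97 in Ing2-/- testes and 8.62, 8.44 and 8.58 in Ing2+/+ testes, a difference of -0.51 (limma adjusted p = 0.161). One Ing2-/- array lay above the lowest Ing2+/+ array, and replicate 3 was lowest. Tcp1, the alpha subunit, which the naming rule leaves out, had a difference of -0.09.

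A list of 53 co-chaperones and heat shock factors outside the naming rule, of which 49 had a probe set, was set beside the members. It had 27 genes above 0 and 22 below, and a median of 0.01. Of these 1 rose and 1 fell (1.97% and 3.01% of all genes did), against 10 higher and 6 lower at an unadjusted p under 0.05 (16.5% and 13.5% of all genes). Hsf2, a heat shock factor active in mouse spermatogenesis, had levels of 8.90, 8.78, 8.71, 9.18 and 8.96 in Ing2-/- testes and 9.49, 9.32 and 9.37 in Ing2+/+ testes, a difference of -0.49 (limma adjusted p = 0.0439). Stub1 (CHIP), the ubiquitin ligase that binds Hsp70 and Hsp90, had 9.03, 9.16, 9.24, 8.87 and 9.07 in Ing2-/- testes and 8.49, 8.73 and 8.71 in Ing2+/+ testes, a difference of 0.43 (limma adjusted p = 0.0455). Both were apart in all arrays, and both were called without Ing2-/- replicate 3, with differences of -0.44 and 0.39. Leaving out Ing2-/- replicate 1, 2 or 5 or any 1 Ing2+/+ testis lost both calls (limma adjusted p 0.0685 to 0.167).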

How the data were processed

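Whole testis RNA of each mouse was measured on 1 Affymetrix Mouse Gene ST array. The deposited log2 values were produced by the authors in Affymetrix Expression Console (version not given in the sources used here) by RMA. This method subtracts background, forces all arrays onto 1 distribution and combines the probes of a set, so that a change in total RNA leaves no trace. Array medians were 6.46 to 6.53 in Ing2-/- and 6.41 to 6.45 in Ing2+/+. Scanner files were not used here. An array gives no read depth, and the precision here depends on how many arrays there are.

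Symbols came from the platform annotation and were updated through gene identifiers with a gene table of GRCm38.p6, found for 21698 of 21789 probe sets with 1 symbol. The 2 genotypes entered a limma 3.58.1 fit (R 4.3.3, lmFit and eBayes without covariates) over all 35557 probe sets, with Benjamini-Hochberg adjustment over all of them and calls at an adjusted p under 0.05. Differences are Ing2-/- minus Ing2+/+. Differences within arrays were tested by exact two-sided permutation. The fit was checked on simulated data. Intervals are at 95%.

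The members, lists and tests were chosen with earlier results of these data known. Genes named by rule are Ing2, the 4 germ-cell forms and their counterparts, called members, in each role group without a called member the 2 with the smallest p, the testis-enriched and stress-inducible lists, and called co-chaperones. Other members were named after their values were seen. Alternatives were 2 rescalings, 2 probe set filters, 3 variance estimates, averaging the probe sets of each gene, an unadjusted p under 0.001, omission of each array in turn, and a block for the replicate number. The numbers were not taken to pair the mice. Protein features were not analysed here. Replicates are separate mice per the labels. Plots used Python 3.11.15 with matplotlib 3.10.9.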

Additional observations from a re-analysis of the deposited data

Results flagged for a closer look

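In 8 of 39 named genes, 1 array lay so far from the other 4 Ing2-/- arrays that its gap to the nearest of them, divided by the whole range of the group, was over 0.71. In each it was the low value of Ing2-/- replicate 3. This share was 0.86 for Dnajc5g, 0.85 for Dnaja4, 0.85 for Dnajb6, 0.78 for Dnajb13, 0.76 for Dnajc5b, 0.76 for Hspa4l, 0.75 for Cct6b and 0.73 for Dnajc27. Dnajc5g had 9.11 in replicate 3 and 10.04 to 10.18 in the other Ing2-/- testes, and Dnaja4 had 8.88 in replicate 3 and 9.52 to 9.63 in the other Ing2-/- testes. Chance gives such a gap in about 1 in 20 groups. It occurred in 14 of the 81 members (17.3%), 13 of them in replicate 3, and in 10.7% of all genes. The pachytene and spermatid marker lists were lowest in the same array.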

How the results depend on the processing

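The call of Hspb7 was kept in 15 of 16 alternatives and missed with the replicate block (limma adjusted p = 0.0612). Hspa2 lost its call in 7 of 17, Hspa14 in 11 of 17, Hspa8 in 13 of 17, Hsf2 in 8 of 17 and Stub1 in 10 of 17. The differences of the chaperones and co-chaperones named by rule kept their sign in all alternatives run, with 3 exceptions. That of Hsp90aa1 was 0.0255 with cyclic loess. That of Hspa1a was -0.0152 with arrays shifted to an equal median, -0.0360 with cyclic loess, and between -0.0161 (without Ing2+/+ replicate 3) and 0.0937 over the arrays left out. That of Cct6a was -0.0120 with the replicate block, -0.0396 with arrays shifted to an equal median, and between -0.0207 (without Ing2+/+ replicate 3) and 0.0320 over the arrays left out.

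Counts of members called higher and lower were 2 and 2. They were 0 and 0 with the replicate block, 0 and 2 with an equal median, and 1 and 4 with cyclic loess. Over probe sets above the median level they were 3 and 1, with 75 members tested and Hspb7 not among them. Over probe sets with 1 symbol they were 3 and 2. They were 1 and 2 with the random variance model, 0 and 2 with an intensity trend, and 12 and 10 with array weights. With probe sets averaged by gene they were 0 and 2, and at an unadjusted p under 0.001 they were 0 and 1. Leaving out 1 array gave 0 to 8 higher and 1 to 8 lower, the highest of both without Ing2-/- replicate 3. Without that replicate 8.72% of all genes were called higher and 7.76% lower. For the other alternatives the share over all genes was not counted, so their counts are not read as a result about chaperones. The cause was not tested.

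Hspa1l minus Hspa8 missed an exact permutation p of 0.05 without Ing2-/- replicate 1 or 2 (0.0571) or any Ing2+/+ array (0.0952), with -0.88 to -0.63 over the arrays left out. Cct6b minus Cct6a ran from -0.34 to -0.20 and passed without Ing2-/- replicate 3 (exact p 0.0286). With 5 against 2 arrays few splits remain.

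Deviations of the arrays that share a number correlated at -0.0574, 0.184 and 0.00577, and 1 of 3 Ing2+/+ arrays was closest to its own number, so the block is only an alternative. The standard errors of the members, from 0.05 to 0.23, limit what 8 arrays can show.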
